A study of Drosophila melanogaster with 2 samples.

Results

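The 10 salivary gland genes described here are fkh, CrebA, trh, hkb, sage, sens, eyg, toe, ps and rib, taken by name from the 13968 protein-coding genes annotated on the chromosome arms. The measurement was chromatin immunoprecipitation and sequencing (ChIP-seq) of whole Drosophila melanogaster embryos collected over 0 to 24 h, from a transgenic line that expresses the Hox protein Sex combs reduced (Scr) fused to eGFP. The antibody was raised against GFP, whereas the antibody field of the labels reads Scr. There were 2 biological replicates in 1 group, all of the same line, with no untagged or mutant embryos as a reference, so no comparison between conditions was possible. The gland primordium is a small part of the whole embryo, and the age range spans the start of gland formation and all that follows, so an entry cannot be placed in gland cells or at a stage.

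Scr, a Hox protein, gives the labial segment and the salivary glands their identity, working with its cofactors Extradenticle and Homothorax. In the labial placode it switches on a first set of transcription factor genes, among them fkh, CrebA, trh, hkb and eyg. Fkh and CrebA then maintain the secretory cells, while Trh and Eyg act in the cells that form the duct. Scr itself disappears from the gland soon after the cells invaginate, and fkh keeps its own expression going. A DNA element upstream of fkh, called fkh250, is a classical example of a site bound by Scr together with Extradenticle.

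The submitters deposited peak lists, each entry with a summit, a signal and a score. The signal is their own value for peak height, on a scale not given in the sources used here. Its level was therefore read against other entries of the same list. Where values of the 2 replicates are set side by side or as a ratio, they are not corrected for depth. The score, capped at 1000, restates the irreproducible discovery rate (IDR). A low IDR marks an entry ranked as reproducible between the sets of reads compared. It is a rate over ranked entries and is not read here as the chance for a single entry. A thresholded list keeps entries with a score of at least 830, an IDR of 0.01, and a ranked list holds weaker entries too. Each replicate has both kinds, and the series level, made from both replicates, has a main and a conservative version of both kinds, which gives 4 thresholded and 4 ranked lists. On the arms, the main thresholded list held 5720 entries with a median signal of 134, replicate 1's held 4462 with a median of 98 and replicate 2's held 4376 with a median of 96.9. The ranked lists held between 67592 and 77377 entries, with medians of 11.7 to 19.5. A summit within 500 bp of a transcription start of the gene was placed at its own start, and one near only another gene's start at that gene. The remaining summits lay in the gene's body or in the flank, up to 10 kb from its ends.

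Of the 10 genes, 9 had a main-list summit in the gene or within 10 kb, beside 70.9% of all protein-coding genes, and fkh had none. At an own start there was a summit for 4 of 10, CrebA, eyg, ps and rib, beside 36.2% of all genes. The conservative list gave the same 4 genes, beside 36.0%. Replicate 1's list gave CrebA, sage, eyg and rib, 4 of 10 beside 30.8% of all genes, and replicate 2's list gave eyg, ps and rib, 3 of 10 beside 30.4%. Only eyg and rib had an own-start summit in all 4 thresholded lists. The shares at own starts thus lay close to those of genes in general. Any annotated start counted, so genes with several starts had more chances to be called. Of the 4 in the main list, ps has 6 starts and rib 2, and CrebA and eyg have 1 each. Among the genes not called there, fkh, trh and sage have 2 each. No share is given for genes with a like number of starts. None of the 4 genes in the main list shared the start with another gene, which placed 4 of 10 beside 16.8% of all genes.

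Away from any start, trh alone had summits in its body, 1 of 10 genes beside 3.60% of all genes. Long genes have more room for such summits. Among genes of at least 20 kb, trh was 1 of the 2 listed genes that met the rule, beside 20.5%, and ps was the one that did not. For hkb, sage and sens, every main-list summit within 10 kb lay at another gene's start, 3 of 10 beside 24.9% of all genes. The strongest summit in the window lay at another gene's start for 8 of the 9 genes with a summit, beside 67.1% of all genes with a summit, and trh was the one exception. Weaker entries were common, and both replicates' ranked lists held an own-start entry for 9 of 10 genes, all but trh, beside 61.9% of all genes.

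**Figure D1:**
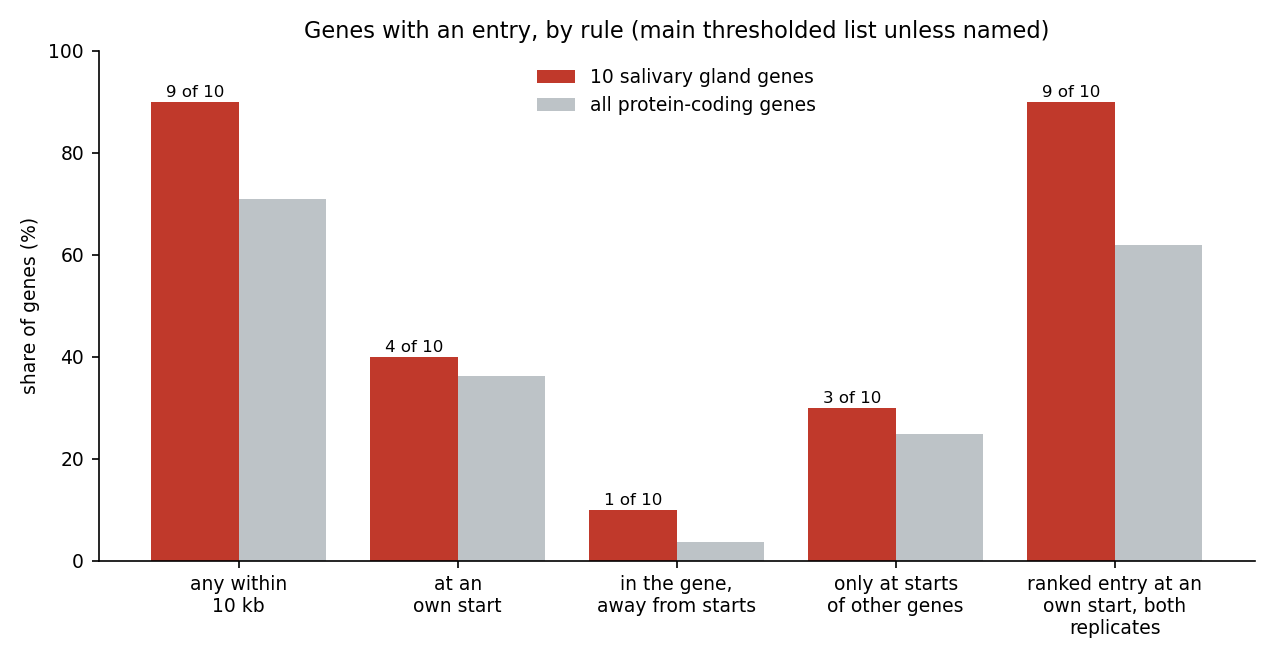
Share of genes (vertical axis, percent) that meet each rule, with the 10 salivary gland genes as red bars on the left of each pair and all 13968 protein-coding genes as grey bars on the right. At an own start the bars stand at 40% for the 10 genes and 36.2% for all genes, and for a summit anywhere within 10 kb at 90% for the 10 genes and 70.9% for all genes.

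The 9 genes had 31 main-list entries in 23 separate regions, since some entries overlap and some wide entries carry several summits. Of these entries, 6 lay at own starts, 2 in the gene body, 2 in the flank and 21 (67.7%) at starts of other genes. The windows of 50 bp either side of the summits that the account turns on are printed first, all on the plus strand of release 6 of the genome (RefSeq). Capitals mark the only searched sites found in them: GAGAGAG, read by the GAGA factor, ACGTG, the core shared by CrebA and Trh sites, and TATCGATA, read by DREF, each on either strand. The window at eyg is shown because it is the strongest own-start summit of the 10 genes, and the 2 windows of trh because they are the only summits inside a gene away from starts. The windows of ps and toe show an internal start and an upstream flank. The windows of fkh and hkb, which had no own-start entry in any thresholded list, are from the main ranked list. The last window, at the divergent start of TrpRS and Vps16A beside sage, shows a neighbour's start for contrast.
eyg, own start, chr3L:12468115-12468215: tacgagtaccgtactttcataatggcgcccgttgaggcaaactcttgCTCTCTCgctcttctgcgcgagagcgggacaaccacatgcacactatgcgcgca
trh, upstream intron summit, chr3L:390322-390422: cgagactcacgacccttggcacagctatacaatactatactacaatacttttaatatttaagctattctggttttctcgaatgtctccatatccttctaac
trh, downstream intron summit, chr3L:378165-378265: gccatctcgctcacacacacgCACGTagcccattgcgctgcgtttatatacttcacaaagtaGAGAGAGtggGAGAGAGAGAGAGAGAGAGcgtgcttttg
ps, internal start, chr3R:9428369-9428469: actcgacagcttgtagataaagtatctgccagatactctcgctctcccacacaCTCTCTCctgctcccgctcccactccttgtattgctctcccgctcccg
toe, upstream flank, chr3L:12434562-12434662: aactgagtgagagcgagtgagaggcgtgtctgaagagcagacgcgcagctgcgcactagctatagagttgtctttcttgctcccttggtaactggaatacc
fkh, own start, ranked list only, chr3R:28585473-28585573: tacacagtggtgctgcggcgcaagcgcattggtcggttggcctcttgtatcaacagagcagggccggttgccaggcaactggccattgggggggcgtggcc
hkb, own start, ranked list only, chr3R:4346798-4346898: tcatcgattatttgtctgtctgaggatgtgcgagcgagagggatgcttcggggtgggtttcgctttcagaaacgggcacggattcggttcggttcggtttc
TrpRS and Vps16A, near sage, chr3R:9266916-9267016: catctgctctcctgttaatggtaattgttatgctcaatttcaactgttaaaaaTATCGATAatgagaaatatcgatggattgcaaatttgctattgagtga

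The gene fkh (FBgn0000659, 3R 28580976 to 28585264, minus strand) encodes the forkhead transcription factor of the secretory cells. It had 0 entries in all 4 thresholded lists. Its 10 kb window was the only one of the 10 with no other protein-coding gene in it, so no neighbour's start could add an entry. The ranked lists held 20 to 25 entries there. The strongest in the main ranked list had a signal of 68.1 at 28585523, 259 bp upstream of the outermost start, in the printed window. Its score was 433, an IDR of 0.0902, and 497 in the conservative ranked list. Replicate 1 had an own-start entry of 34.8 with an IDR of 0.151, and replicate 2 one of 35.2 with an IDR of 0.0454. Both replicates thus held an entry within 500 bp of the starts, and neither reached the threshold of 0.01. By signal, these own-start entries stood above 92.5% of the main ranked list, 91.4% of replicate 1's and 90.8% of replicate 2's. The fkh window also holds 1 copy of AGATTAATC, most of the fkh250 site, at 28593669 to 28593677, 8405 bp upstream of the outermost start. No entry of any ranked list covered that copy, and whether it belongs to fkh250 itself was not checked.

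CrebA (FBgn0004396, 3L 15535395 to 15553214, plus strand) encodes the bZIP activator of secretory pathway genes. Its main own-start summit lay at 15535413, 18 bp downstream of the start and in the 5′ UTR, with a signal of 79.0. The replicates had 45.6 in replicate 1 and 37.8 in replicate 2 at the same place. The score was 1000 in the main and the conservative list and 995 in replicate 1, while in replicate 2 it was 821, just under 830. A second main-list summit in the same region, at 15535614, had a signal of only 7.66 and was absent from the conservative thresholded list. The strongest summits in the window belonged to others, with 240 at the starts of CG7739 and SCCRO and 229 and 136 at the start of AGO2, the Argonaute of small interfering RNAs. The strongest neighbour stood 3.04 times above the own start in the main list, 2.61 times in replicate 1 and 3.59 times in replicate 2.

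The gene hkb (FBgn0261434, 3R 4345015 to 4346646, minus strand) encodes a zinc finger factor that orders the invagination of the placode. Its single main-list summit had a signal of 130 at 4337806, 51 and 132 bp from the starts of CG1103 and Skp2 and 8840 bp from its own start. The strongest entries there were 56.5 in replicate 1 and 59.8 in replicate 2, both thresholded. At its own start only ranked entries were found, 49.5 in the main list, 29.5 for replicate 1 and 30.6 for replicate 2. The score of that entry differed widely between versions of the list, 98 (IDR 0.581) in the main and 773 (IDR 0.0137) in the conservative ranked list, for the same signal and summit.

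The gene trh (FBgn0262139, 3L 366524 to 392633, minus strand) encodes the bHLH-PAS factor of tracheal and salivary duct cells. It has 2 annotated starts, at 392633 and 377316. The stronger of its intronic summits lay at 390372, 2261 bp inside the gene from the upstream start, and its signal was 235 in the main list, 134 for replicate 1 and 94.1 for replicate 2. The other lay at 378215, 899 bp upstream of the internal start, and its signal was 159 in the main list, 63.7 for replicate 1 and 92.4 for replicate 2. Both were in all 4 thresholded lists, the first with its higher value in replicate 1 and the second in replicate 2. A signal of 235 was above 66.3% of the main list. No other gene of the 10 had its strongest summit in its own sequence away from a start. At the starts of trh themselves, the main and replicate 1 ranked lists had no entry within 500 bp, and the strongest of replicate 2 was 26.6 with an IDR of 0.653. The only neighbour summit had a signal of 191, at the divergent start of CG1233 and Cdc5, a splicing factor gene, and was lower than the upstream intronic summit in the main list and in both replicates.

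The gene eyg (FBgn0000625, 3L 12462537 to 12468021, minus strand) encodes a Pax-family factor needed for the salivary duct. Its own-start summit at 12468165, 144 bp upstream of the start, reached 193 in the main list, 91.6 for replicate 1 and 82.0 for replicate 2, with a score of 1000 in all 3. It was the only own-start summit of the 10 genes above the main-list median of 134. The far stronger neighbour was CG10616, whose start carried a summit 3629 bp upstream of the eyg start, at 1341.9 in the main list, 785 for replicate 1 and 568 for replicate 2. That is 6.96 times the eyg signal in the main list, 8.57 times for replicate 1 and 6.92 times for replicate 2.

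The gene toe (FBgn0036285, 3L 12422510 to 12432668, minus strand) is the paralogue next to eyg, with 29868 bp between them and no overlap of their windows. It had no own-start entry in a thresholded list. Its strongest summit away from other genes' starts lay at 12434612, in the flank 1944 bp upstream of its start, and its signal was 130 in the main list. Replicate 1 had 50.1 there with a score of 445, below the threshold, and replicate 2 had 73.7 with a score of 1000. The call at this site thus came from 1 of the 2 replicates and the series-level lists. A further flank summit of 4.34, at 12434225, was in the main but not the conservative thresholded list. At its own start the main ranked list had 16.7 with an IDR of 0.843, the lowest own-start signal in that list among the 9 genes with one. The start of ArfGAP1, a GTPase-activating protein of the Golgi, carried 1147.2 in the main list, 618 for replicate 1 and 548 for replicate 2.

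The gene sage (FBgn0037672, 3R 9262654 to 9264142, minus strand) encodes a gland bHLH factor that works with Fkh. It had the most main-list entries of the 10 genes, 7, and all lay at starts of other genes. The strongest, 1100.2 at the divergent start of TrpRS, a tryptophan tRNA synthetase gene, and Vps16A, a membrane tethering gene, lay 2824 bp upstream of sage, with 526 in replicate 1 and 571 in replicate 2. Ibf1 and Ibf2, insulator binding factor genes, had 565 and 309 between them, with 43.2 at Ibf1 alone. ATP6AP2, a proton pump accessory gene, had 424 and 72.9, and CG16734 had 125. At sage itself only replicate 1 had thresholded entries, 33.5 with a score of 843 and 16.1 with a score of 842, both in coding sequence and just inside the threshold of 830. The strongest of them lay 446 bp from the nearest start. Replicate 2's strongest own-start entry was 17.6, with an IDR of 0.714, and the main ranked list had 50 with an IDR of 0.392, so the main list did not carry the call of replicate 1.

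The gene sens (FBgn0002573, 3L 13396228 to 13401125, minus strand) encodes a zinc finger factor that keeps gland cells alive. Its main-list summits lay at the starts of Poc1, a centriole gene, with 95.6 and 63.4, and of CG10171, with 61.1. Replicate 1's thresholded list had none of them and replicate 2's had 1, with a signal of 58.8 at Poc1. Replicate 1's ranked list had 45.1 there with a score of 668. At its own start the main ranked list had 32.4 with an IDR of 0.692, replicate 1 had 16.2 and replicate 2 had 17.6. Within their ranked lists these values stood above 75.2% of entries in the main list, 68.4% for replicate 1 and 68.6% for replicate 2, and none passed the threshold. The sens window holds the other copy of AGATTAATC found among the 10 genes, at 13396524 to 13396532, 4601 bp inside the gene from its start, and no entry of any ranked list covered it.

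The gene ps (FBgn0261552, 3R 9417940 to 9455500, plus strand), pasilla, encodes an RNA-binding protein that regulates splicing and is needed in the gland. It is the longest of the 10 and has 6 annotated starts. The main list had a summit of 112 at 9428419, 142 bp upstream of an internal start, with 41.1 in replicate 1 (score 43, not thresholded) and 61.3 in replicate 2 (thresholded). It had another of 78.1 at 9436712, 123 bp upstream of the last start, with 44.2 in replicate 1 and 50.6 in replicate 2, thresholded in neither. The start at 9419521 had a ranked entry with a score of 1000 in all 4 ranked lists, and its signal was 95.2 in the main list, 50 for replicate 1 and 61.6 for replicate 2. That entry was in none of the 4 thresholded lists, although its score passed the threshold. Another at the outermost start, at 9417911 with a signal of 79.3, scored 911 in the main and 1000 in the conservative ranked list and was likewise in no thresholded list. Such entries were 2.72% of those of the main ranked list with a score of at least 830 (160 of 5880), 2.79% in replicate 1 and 2.91% in replicate 2. The thresholded lists have 1 more input than the ranked ones, per the submitters' file notes, and its part in the loss of these entries was not tested. Around ps, GstZ1 had 269 and the divergent start of Task7 and alpha-Man-IIa had 161.

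The gene rib (FBgn0003254, 2R 19270078 to 19281396, plus strand) encodes a BTB-domain factor of tube growth in gland and trachea. Its own-start summit at 19275526, 206 bp upstream of the internal start, reached 118 in the main list, 49.4 for replicate 1 and 71.3 for replicate 2, and was thresholded in all of them. The outermost start had no thresholded entry. The start of Fkbp12 nearby had 655 in the main list, 358 for replicate 1 and 301 for replicate 2, and 91.8 at a second summit.

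**Figure D2:**
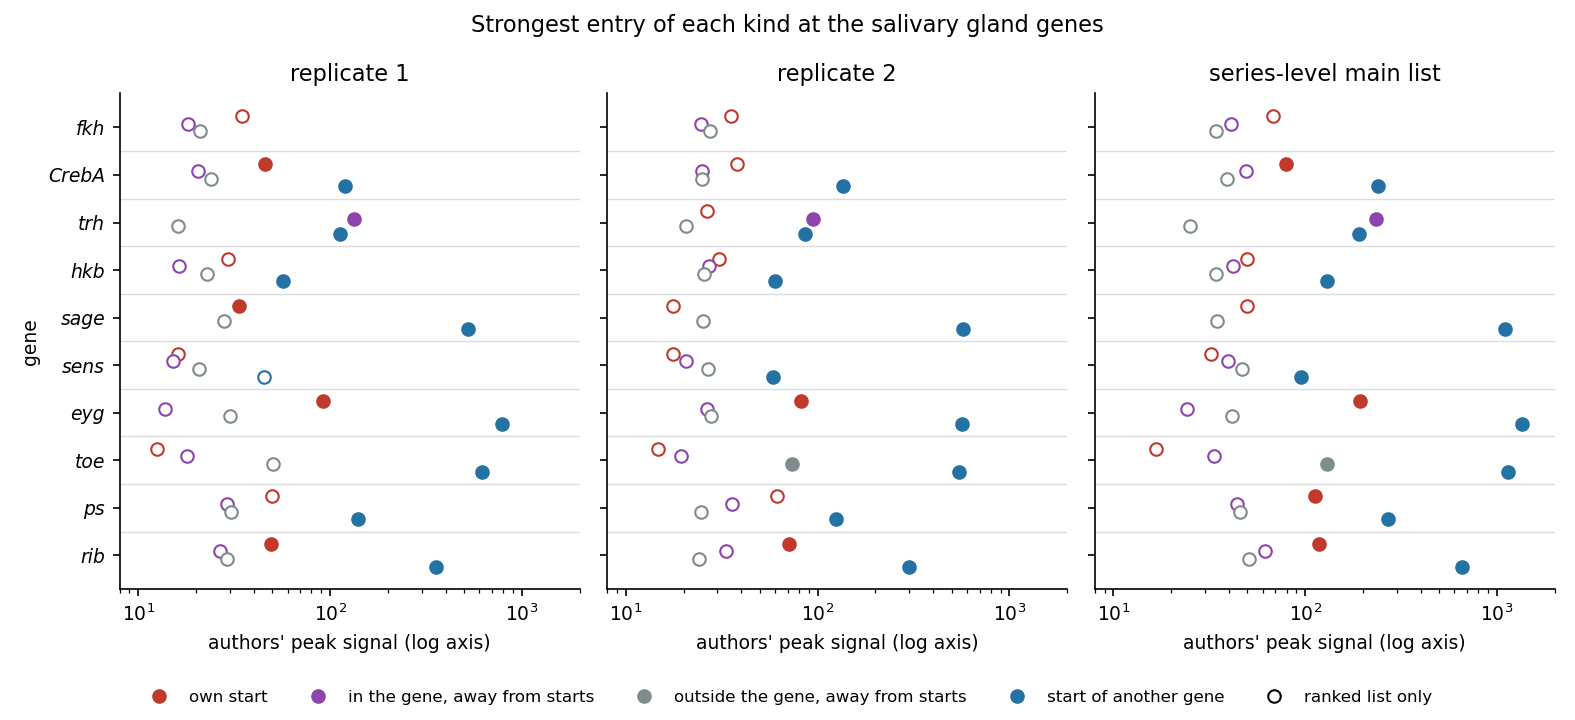
Strongest ranked entry of each kind for each gene, as the authors' signal on a log axis, in replicate 1, replicate 2 and the series-level main list; filled points are also in the thresholded list and open points are not, and colour gives the place of the summit. The blue points, at starts of other genes, lie to the right of the red own-start points in every gene that has both, from 2.4 times for ps to 68.7 times for toe in the main list. For ps the strongest own-start entry in both replicates is open, being absent from the thresholded lists, while a weaker one of replicate 2 is thresholded.

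**Figure D3:**
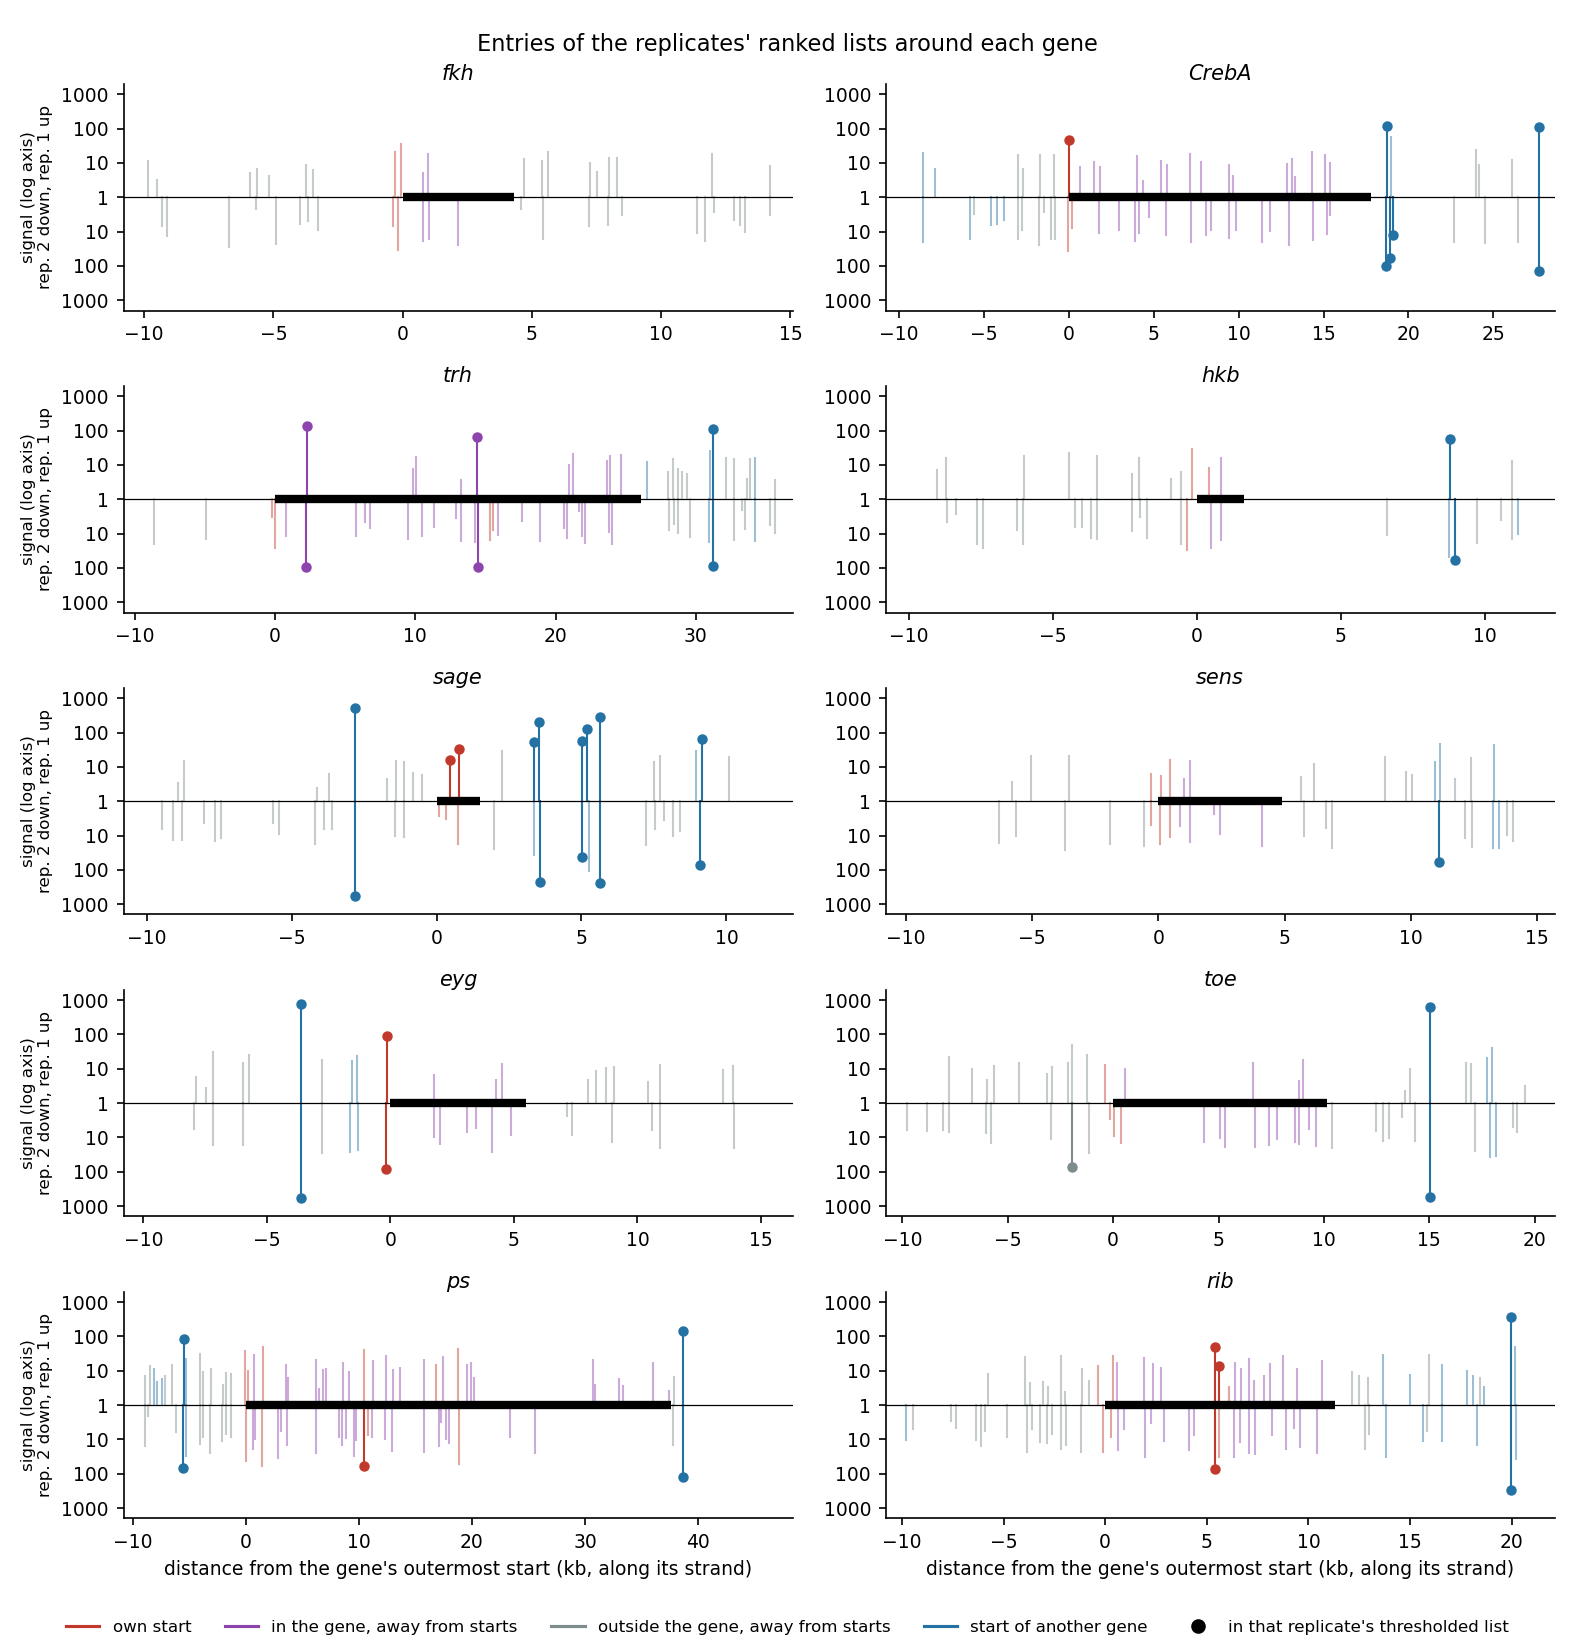
Entries of the replicates' ranked lists around each gene, by distance in kb from its outermost start along its strand; lines go up for replicate 1 and down for replicate 2, with length as signal on a log axis, and dots mark thresholded entries. The black bar is the gene. Lines with dots for both replicates stand inside trh, at own starts of eyg and rib, and at starts of other genes nearby. The lines at CG10616 near eyg and at Fkbp12 near rib are taller than the own-start lines, and fkh has no dot.

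Signal at own starts was modest by the standard of genes with an own-start summit. In the main thresholded list the median over CrebA, eyg, ps and rib was 115, with a range of 79 to 193, beside a median of 233 and quartiles of 109 and 534 over the 5062 genes with such a summit. In replicate 1 the median over 4 genes was 47.5, beside 161 over 4307 genes, and in replicate 2 it was 71.3 over 3 genes, beside 147 over 4252. In the ranked lists the medians were closer, 68.1 over 9 genes beside 79.6 over 9671 genes in the main list, 34.8 beside 41.4 in replicate 1 and 32.9 beside 43.5 in replicate 2. The genes in these medians passed a threshold, so they are a description and not all members. In the main thresholded list, 2344 of the 5062 genes had a summit at a start shared with no other gene, as CrebA, eyg, ps and rib had. No median over those genes alone is given.

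Each of the 31 main-list entries was matched to the overlapping entry with the nearest summit in each replicate's ranked list, and all 31 had one in both. The series-level list was made from both replicates, so this overlap is partly built in. The matched entry was thresholded in both replicates for 17, in replicate 1 only for 5, in replicate 2 only for 6 and in neither for 3. Counting any overlapping thresholded entry instead, as for hkb, where replicate 2's thresholded summit is not the nearest one, gave 22 in both, 2 in replicate 1 only, 5 in replicate 2 only and 2 in neither. For 26 entries the matched summits lay within 100 bp of the main summit in both replicates, a limit set after seeing the data. Over these the ratio of replicate 1 to replicate 2 had a median of 1.13 and ran from 0.67, at the internal start of ps at 9428419, to 1.42, at the upstream intron of trh. For the other 5 entries, the weaker summits of CrebA and Poc1 among them, a replicate had no summit that near, and no ratio is read. Of the 6 own-start entries, those of eyg and rib were thresholded in both replicates.

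**Figure D4:**
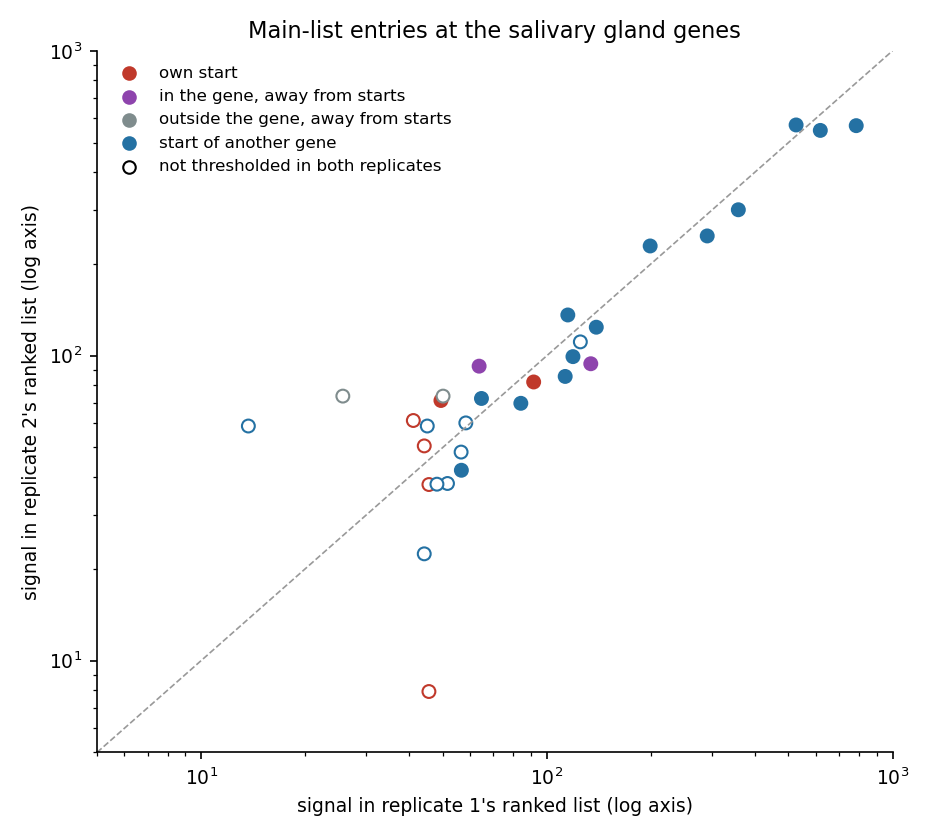
Signal of the 31 main-list entries at the 10 genes in replicate 1's ranked list (horizontal) and replicate 2's (vertical), both log axes, with colour by place, open points where the matched entry is not thresholded in both replicates and a dashed line of equal signal. The entries at starts of other genes reach 785 in replicate 1 and 571 in replicate 2, and those at own starts reach 91.6 in replicate 1 and 82.0 in replicate 2.

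The 50 bp to each side of the 31 summits were searched for short DNA sites, in both orientations, and so were those of all 5720 main-list summits. A site of any of the 10 kinds was in 14 windows (45.2%), beside 34.8% of all windows. GAGAGAG, which the GAGA factor reads, was in 3 windows, at eyg, at the internal start of ps and in the downstream intron of trh, beside 3.25% of all windows. These 3 were among the 10 windows at own starts, bodies and flanks, and 0 of the 21 at other genes' starts held it. TATCGATA, which DREF reads at promoters of broadly used genes, showed the opposite split, in 6 of the 21 and 0 of the 10, beside 12.8% of all windows. The 6 were at TrpRS and Vps16A, at Ibf1 and Ibf2 for 2 summits, at ArfGAP1, at GstZ1 and at Fkbp12. Of these 6 windows, the 2 at Ibf1 and Ibf2 came from the same wide region. The shares of all windows are not split by place. The split between the 21 and the 10 windows was noticed in the data and not tested.

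Sites for Scr with Extradenticle were rare both in these windows and in those of all main-list summits. AGATTAATC, most of the fkh250 site, was in 0 of 31, beside 0.0699% of all windows. TGATTAAT, a Hox and Extradenticle site, was in 1, at Fkbp12, beside 0.42% of all windows, and TGATTTAT in 0, beside 0.892%. TGACAG, read by Homothorax, was in 3, beside 4.11%. These were a summit at the Ibf1 and Ibf2 starts, another at Ibf1 alone and the weaker toe flank summit, with a signal of 4.34. TGTTTAC, a forkhead site, was in 2 beside 3.22%, TATTTAC in 1 beside 3.02%, ACGTG in 2 beside 9.28% and GGTCACAC, read by M1BP, in 1 beside 3.78%. In the whole 321 kb of the 10 windows, AGATTAATC occurred 2 times, 0.624 per 100 kb, beside 0.537 per 100 kb in the genome. The absence of a string from a window says only that those letters are not there.

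Other genes of the gland were counted by the same rules in the main list. An own-start summit was found for 36.2% of all genes and a summit within 10 kb for 70.9%, and the counts of each list are read beside these shares. All 10 listed inputs to gland specification, such as exd, hth and tsh, had an own-start summit. The highest were exd with 358, at a start shared with eIF5, and spi with 215, also at a shared start. Of 12 genes for invagination and migration, 8 had one, led by klar with 1302.3 at a start shared with BORCS6, and zip, the nonmuscle myosin heavy chain, with 598. Of 14 secretory pathway genes, which CrebA activates in the gland, 11 had one, with 1997.6 at Sec61alpha, shared with Daxx, and 1635.6 at Sec61beta, and betaCOP had no summit within 10 kb. Of 10 gland products and enzymes, 0 had one, and Sgs4 and PH4alphaSG1 had no summit within 10 kb. Of 3 duct genes 2 had one, retn with 80.8 and btl with 73.9. Several of these values are at starts shared with other genes, and the lists were not tested against each other. The inputs to gland specification include Scr itself. In the replicates, Scr had a thresholded own-start entry for replicate 1 only, and tsh, tio and Abd-B for replicate 2 only. Among the genes for invagination and migration, cv-c had one for replicate 1 only. Among the secretory pathway genes, SrpRalpha had one for replicate 2 only. Of the duct genes, retn had one for replicate 2 only and btl for neither replicate.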

How the data were processed

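The submitters' deposited peak lists were used: per the submitters' file notes, each replicate's lists came from its alignments with control alignments, on dm6. Aligner and peak caller were not named in the sources used here. The signal is the authors' deposited value per peak, the score and the −log10 IDR are deposited too, and the score lay within 1 of a scaled −log2 IDR. Depth is unknown, so no interval or floor is given, and 8 further columns per ranked list were not used. Python 3.11.15, numpy 2.4.6, pandas 2.3.3 and matplotlib 3.10.9 were used. Starts were those of protein-coding transcripts in the Ensembl annotation BDGP6.54 of release 115, and sequence came from RefSeq release 6, whose chromosome lengths fit the lists. Coordinates count from 1. Placement was tested on simulated summits. There are no p-values: with 1 group nothing was tested, and replicates, described as biological in the labels, are given by value. The members, lists and rules were chosen with earlier results of these data known, and genes of 20 kb or more were set apart after seeing the data. All 10 genes are named, and of the other lists the 2 with the strongest own-start summit and up to 2 without a summit. Also named are hth and tsh, as examples, and genes whose own-start summit was not thresholded in both replicates.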

Additional observations from a re-analysis of the deposited data

How the results depend on the processing

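Over 37 alternatives to the counts of genes, windows and matched entries, 1 of them added after seeing the data, 33 stayed within 1.5 times and 4 did not. Of the 10 genes, 9 had a main-list summit within 10 kb, and 4 with the gene body only. With peaks above the median signal, 1 gene, eyg, kept an own-start summit in place of 4, and 5 genes in place of 3 had summits only at starts of other genes. That last count was 1 with a window of 2 kb. These settings keep fewer peaks or less sequence by construction. The shares of all genes given above are for the main settings and do not apply to these counts. Without replicate 1 or replicate 2, the list of the other replicate gave 8 to 9 genes within 10 kb and 3 to 4 with an own-start summit. It gave 1 with a summit in its body and 3 to 4 with summits only at other genes' starts. The own-start counts stand beside 30.4% to 30.8% of all genes, and the other counts have no such share here. Windows holding a site numbered 10 within 25 bp of the summits and 17 within 100 bp, in place of 14. Within 25 bp the share was 32.3%, beside 19.9% of all windows, and within 100 bp it was 54.8%, beside 54.1%. No paired analysis was possible because there is 1 group with 2 replicates and no test. Depth and the scale of the signal are unknown, so whether fkh lacks binding or lies below detection cannot be told apart.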
